A study of Mus musculus with 4 samples.

Results

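miR-34a, miR-192, miR-194 and miR-215 are microRNAs (miRNAs) that share a link to the tumour suppressor p53. They were examined here in small RNA libraries of the mouse main olfactory epithelium, the odour-sensing lining of the nasal cavity, built of olfactory sensory neurons, supporting cells and stem cells. The members were taken by name from the authors' deposited table (mmu-miR-34a-5p, mmu-miR-192-5p, mmu-miR-192-3p, mmu-miR-194-5p and mmu-miR-215-5p, written without the species prefix from here on): 5 of the 6 listed arms had a row among its 1167 rows, and miR-34a-3p was not analysed here. The study set AC3-/- mice, which lack adenylyl cyclase 3, against wild-type (WT) mice; adenylyl cyclase 3 makes the cAMP that carries the odour signal inside olfactory neurons. All 4 samples, 2 of each genotype, came from C57BL/6 males 3 months of age, and the labels name no other allele or treatment. How many mice went into a library, and whether the libraries come from different mice, is not in the labels, so p-values measure the spread between libraries, which may be technical. The tissue was taken whole, so fewer cells of a type and less RNA per cell cannot be told apart, and mRNAs that would check the tissue or the missing Adcy3 are not measured in these libraries.

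miRNAs are cut from hairpin precursors, usually with one arm kept in the silencing complex and the other discarded, and the kept arm finds its target mRNAs mainly through its seed, bases 2 to 8. Transcription of miR-34a is switched on by p53 after DNA damage, and the miRNA lowers cell cycle and survival proteins. miR-192, miR-194 and miR-215 can also be induced through p53, but are best known as abundant miRNAs of gut, liver and kidney epithelium. In the olfactory epithelium, neurons are lost and replaced from stem cells throughout life.

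The mature sequences are shown because the 5 arms carry 4 seeds, and because reads of near-identical relatives have to be told apart. RefSeq (GRCm38.p6) held all 5 arms; the seed is in capitals.
miR-34a-5p: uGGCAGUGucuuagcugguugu
miR-449a-5p: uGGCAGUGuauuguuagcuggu
miR-34b-5p: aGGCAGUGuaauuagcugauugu
miR-192-5p: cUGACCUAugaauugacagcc
miR-215-5p: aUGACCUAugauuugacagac
miR-194-5p: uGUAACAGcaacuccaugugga
miR-192-3p: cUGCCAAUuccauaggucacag
Among the RefSeq mature sequences, miR-34a-5p had its seed in common with miR-34b-5p, miR-449a-5p and miR-449c-5p. RefSeq held 947 of the 1123 rows that carry a mouse miRNA name, so the seeds of the rest were not compared. miR-34c-5p, counted among the relatives of miR-34a below, was not in the list of matches. This does not show that its seed differs. miR-34a-5p differed from miR-449a-5p at 7 of 22 bases. miR-192-5p and miR-215-5p had the same seed and 18 of 21 bases in common. Counted from the 5′ end, the 3 differences from miR-192-5p to miR-215-5p were C1A, A12U and C20A. No other mature mouse miRNA of the RefSeq table had the seed of miR-194-5p.

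The members come from 3 places in the genome (GRCm38). Mir34a occupies chromosome 4 positions 150068454 to 150068555 of the plus strand, and 17 of its bases overlap an exon of Gm37795, a predicted transcript. Mir194-2 and Mir192 lie 115 bases apart on the plus strand of chromosome 19, at 6264643 to 6264728 and 6264844 to 6264932, outside other annotated genes. Mir194-1 and Mir215 lie 195 bases apart on the plus strand of chromosome 1, at 185313319 to 185313385 and 185313581 to 185313692. Mir215 falls in an exon and Mir194-1 in an intron of the noncoding gene 2010103J01Rik, which runs antisense to Iars2. Each cluster thus joins a copy of miR-194 to miR-192 or to its seed twin miR-215. The precursors of miR-194 give the same 5p arm and different 3p arms, as the hairpins show with the mature arms in capitals.
Mir194-1: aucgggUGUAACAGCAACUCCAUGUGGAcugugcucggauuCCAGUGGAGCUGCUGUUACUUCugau
Mir194-2: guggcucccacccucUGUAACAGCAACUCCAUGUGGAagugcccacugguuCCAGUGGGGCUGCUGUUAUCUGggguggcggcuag
The 3p arms differ at 4 of 22 bases, from miR-194-1-3p to miR-194-2-3p A8G, C19U, U20C and C22G, so a full-length read of a 3p arm names its cluster and a read of miR-194-5p does not.

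The deposited table gives 1 mean per genotype of read counts divided by a size factor, called normalised reads here. Whole reads in each library were worked back from these means, and the libraries are named a and b, letters that carry no replicate number. Reads counted in the rows of the table came to between 19201686 and 20063529 for the pair of AC3-/- libraries. For the WT pair they came to between 21071945 and 23190561. WT library b stood apart from the other 3. Among the 446 miRNAs that had library values and averaged 10 or more, 26 differed at least 2-fold between the AC3-/- libraries and 114 between the WT libraries, and WT library a had 42 and 52 such miRNAs against AC3-/- libraries a and b. Each of the 4 members with a mean of at least 10 is therefore also given without WT library b.

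No member passed the test for a difference between genotypes. By the authors' deposited table, none of the 5 had an adjusted p under 0.05, where 1 of 1167 miRNAs did (0.0857%), and none had an unadjusted p under 0.05, where 41 of 1167 did (3.51%). Among the members, 2 lay above and 3 below 0 by the deposited log2 fold change (AC3-/- over WT), with a median of -0.13 beside -0.01 over all rows. That median is the value of miR-192-3p, which had 1 read over the 4 libraries. Among rows with a mean of at least 10, the median was 0.07 for the 4 members and -0.04 for all. A fit with limma to log2(normalised reads + 1) of the single libraries called none of 446 miRNAs (0%) at an adjusted p of 0.05, and 18 (4.04%) had an unadjusted p under 0.05, none of them a member. It tested 4 of the 5 members; miR-192-3p, with a mean under 10, was left out. With 2 libraries per genotype, the smallest p of an exact permutation test is 0.333. The AC3-/- and WT libraries did not overlap for 2 of the 4 members, miR-34a-5p and miR-192-5p, a share to be read beside 33.9% of all 446 miRNAs.

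**Figure D1:**
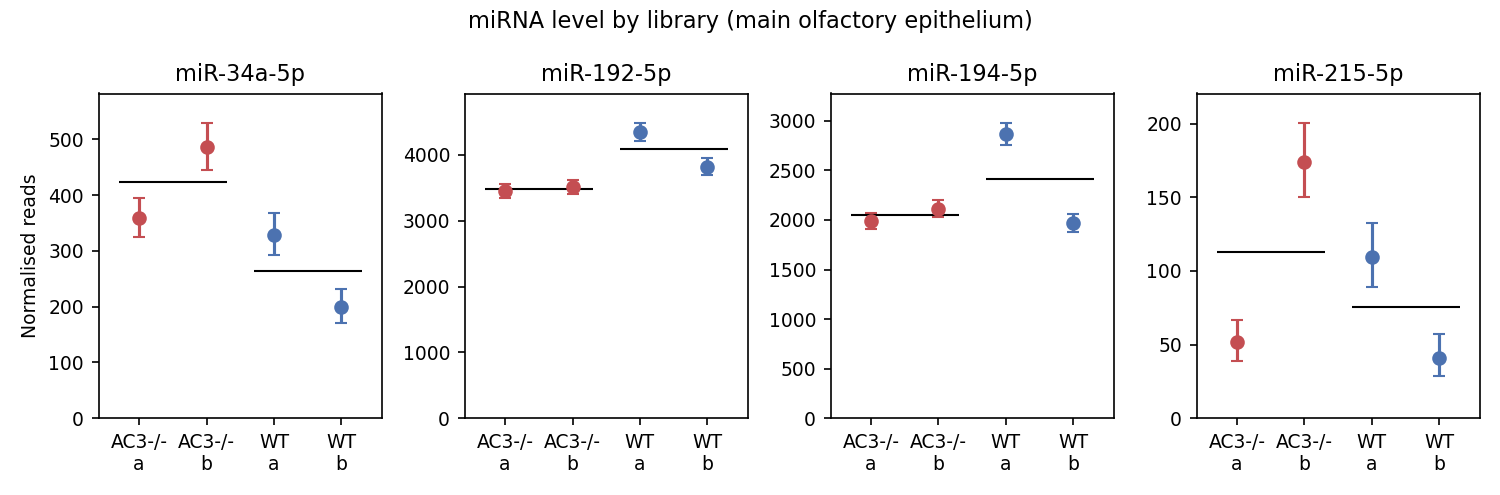
Normalised reads (vertical axes, from 0) of the 4 members with a mean of at least 10 in AC3-/- libraries a and b (red) and WT libraries a and b (blue). Points are libraries, error bars their 95% exact Poisson intervals for counting error, and black lines genotype means; the AC3-/- points lie above both WT points for miR-34a-5p and below both for miR-192-5p, whose mean was higher in AC3-/- when taken as a share of the table.

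miR-34a-5p, the p53-induced guide arm, was the member whose log2 fold change lay furthest from 0, and it did not pass. It had 358.9 and 486.1 normalised reads in AC3-/- libraries a and b, against 328.3 and 200.0 in WT libraries a and b (412, 534, 309 and 171 reads). Both AC3-/- libraries were above both WT libraries, which was also so for 75 of the 446 miRNAs (16.8%), and the 95% Poisson intervals of AC3-/- library a (325.1 to 395.3) and WT library a (292.7 to 367.1) overlapped. The means were 422.5 ± 89.9 in AC3-/- and 264.2 ± 90.8 in WT (SD, n = 2 libraries each).

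In the authors' deposited table miR-34a-5p had a log2 fold change of 0.56 (p = 0.147, adjusted p = 0.940). limma gave a log2 difference of 0.70 (standard error 0.41), a 95% interval from -0.33 to 1.73 and an adjusted p of 0.932, and ranked it 60 of 446 by p. The difference was in the same direction but smaller, 0.35, without WT library b (adjusted p = 0.819 with limma), and 1.06 without WT library a (adjusted p = 0.0711 with limma, the spread then coming from the AC3-/- pair alone, which the single WT library is taken to share). Leaving out WT library a raised the calls over all 446 miRNAs to 64 as well, so this value belongs to a setting in which many miRNAs pass. As a share of all normalised reads in the table the log2 ratio of miR-34a-5p was 1.17, against 0.68 from the deposited means.

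The relatives of miR-34a are miR-34b, miR-34c and those of the miR-449 group, which are made in multiciliated cells and promote the formation of cilia. 9 rows of these miRNAs, both arms included, were in the table, and arms of 1 precursor are not independent of each other. All 9 were above 0 in the authors' deposited table (median log2 fold change 0.05), where 578 of all 1167 rows were above 0, and 0 had an unadjusted p under 0.05. Their spread within a genotype was wider than that of miR-34a-5p. miR-449a-5p had 4027.3 and 5969.4 normalised reads in AC3-/- libraries a and b, against 9078.7 and 512.2 in WT libraries a and b. Summed over the 6 that had library values and averaged 10 or more, the list gave 13867.8 and 26254.3 normalised reads in AC3-/- libraries a and b, against 30645.8 and 5975.7 in WT libraries a and b. The genotypes overlapped for all 6, and the most abundant, miR-34c-5p, had no single solution per library; its genotype means were 230226 in AC3-/- and 225941 in WT. Among the scarce members of the list, miR-449b was at 0 in WT library b and miR-449c-3p at 0 in all libraries but AC3-/- library b, which had 1 read.

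Against its seed relative miR-449a-5p, miR-34a-5p stood at 8.91% and 8.14% in AC3-/- libraries a and b, against 3.62% and 39.0% in WT libraries a and b. Such a percentage compares reads of different sequences, which adaptor ligation favours unequally, so only its movement between libraries can be read. WT library b had the highest ratio: from library a to b within WT the log2 ratio was -4.15 for miR-449a-5p and -0.71 for miR-34a-5p.

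miR-192-5p, an epithelial miRNA of gut and liver, was the most abundant member and varied least. It had 3449.7 and 3511.7 normalised reads in AC3-/- libraries a and b, against 4349.1 and 3817.0 in WT libraries a and b (3960, 3858, 4093 and 3264 reads). Both AC3-/- libraries were below both WT libraries, as for 76 of the 446 miRNAs (17.0%), and the means were 3480.7 ± 43.8 in AC3-/- and 4083.0 ± 376 in WT (SD, n = 2 libraries each). The authors' deposited table gives a log2 fold change of -0.21 (p = 0.433, adjusted p = 0.940).

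limma gave miR-192-5p a log2 difference of -0.23, a standard error of 0.24 and a 95% interval from -0.83 to 0.38, with an adjusted p of 0.932. Without WT library b the difference was -0.32, and without WT library a it was -0.13. With median ratio and upper quartile scaling the limma difference stayed below 0, at -0.20 and -0.31. The direction turned when shares were taken: of all normalised reads in the table, miR-192-5p took 0.0398% in AC3-/- and 0.0331% in WT. The shares shift every log2 ratio up by 0.50 relative to size factors, since the means sum to 8739148 in AC3-/- and 12320877 in WT. Over the 446 miRNAs the means sum to 595604 in AC3-/- and 618746 in WT, so most of that gap lies in the other rows.

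miR-192-3p, the discarded arm of the same hairpin, had 0 reads in AC3-/- libraries a and b, against 0 and 1 in WT libraries a and b. A count of 0 allows up to 3 reads, or 2.61 and 2.73 normalised reads in AC3-/- libraries a and b. Over the 4 libraries the 5p arm had 15175 of the 15176 reads of both arms (99.99%, 95% exact binomial interval 99.96 to 99.9998%, counting error only). With counts this low no difference between genotypes was detectable for miR-192-3p.

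miR-194-5p, which is cut from precursors in both clusters, was the second most abundant member. It had 1988.0 and 2110.9 normalised reads in AC3-/- libraries a and b, against 2867.9 and 1967.0 in WT libraries a and b (2282, 2319, 2699 and 1682 reads). WT library a stood above the rest and WT library b was the lowest, so the genotypes overlapped. The means stood at 2049.4 ± 86.9 in AC3-/- and 2417.4 ± 637 in WT (SD, n = 2 libraries each). The authors' deposited table gives a log2 fold change of -0.21 (p = 0.531, adjusted p = 0.940).

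limma gave miR-194-5p a log2 difference of -0.21 (standard error 0.31) and a 95% interval from -0.99 to 0.57 (adjusted p = 0.932). The difference was -0.49 without WT library b and turned to 0.059 without WT library a. With median ratio and upper quartile scaling it stayed below 0, at -0.19 and -0.29. As a share of the table miR-194-5p too was higher in AC3-/-, 0.0235% against 0.0196% in WT, by the same shift as miR-192-5p. miR-194-5p stood at 57.6% and 60.1% of miR-192-5p in AC3-/- libraries a and b, against 65.9% and 51.5% in WT libraries a and b, so the AC3-/- ratios lay between the WT ones.

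A full-length read of a miR-194 3p arm names its precursor. Reads of the 3p arms were 33 of the 9015 miR-194 reads, and do not show which precursor gave miR-194-5p. miR-194-2-3p, from the cluster with miR-192, had 10 and 12 reads in AC3-/- libraries a and b, against 8 and 2 in WT libraries a and b. miR-194-1-3p, from the cluster with miR-215, had 0 and 1 reads in AC3-/- libraries a and b, against 0 and 0 in WT. Of the 33 reads of both 3p arms, 32 were miR-194-2-3p (97.0%, 95% exact binomial interval 84.2 to 99.9%, counting error only), and of the reads of the seed twins miR-192-5p and miR-215-5p, 15175 of 15563 were miR-192-5p (97.5%, 97.2 to 97.7%). Both shares lean to the chromosome 19 cluster. Unequal ligation of the arms, or unequal loss of the 3p arms, was not tested, and 3p reads were too few to compare genotypes.

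miR-215-5p has the seed of miR-192-5p and varied more between libraries. It had 51.4 and 173.9 normalised reads in AC3-/- libraries a and b, against 109.4 and 40.9 in WT libraries a and b (59, 191, 103 and 35 reads). Each genotype had a high and a low library, the genotypes overlapped, and the 95% Poisson intervals of the AC3-/- libraries (39.1 to 66.3 and 150.1 to 200.3) did not touch; these intervals hold counting error only. The means were 112.6 ± 86.6 in AC3-/- and 75.2 ± 48.4 in WT (SD, n = 2 libraries each).

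In the authors' deposited table miR-215-5p had a log2 fold change of 0.34 (p = 0.491, adjusted p = 0.940). limma gave a log2 difference of 0.49 (standard error 0.75), a 95% interval from -1.38 to 2.36 and an adjusted p of 0.932. The direction turned to -0.38 without AC3-/- library b and to -0.21 without WT library b, and the value was 1.36 without AC3-/- library a and 1.19 without WT library a. As a share of the table its log2 ratio was 1.08, against 0.58 from the deposited means. Its discarded arm, miR-215-3p, had 2 and 3 reads in AC3-/- libraries a and b, against 0 in each WT library.

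**Figure D2:**
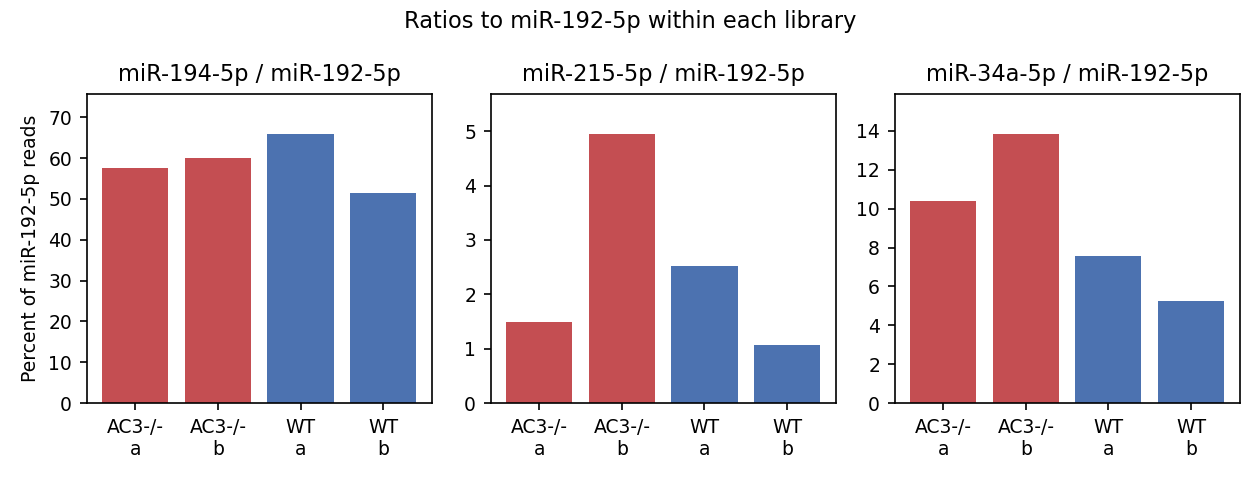
Reads of miR-194-5p, miR-215-5p and miR-34a-5p as a percentage of miR-192-5p (vertical axes, from 0) within each library, AC3-/- in red and WT in blue; bars are single libraries. miR-194-5p stays between 51.5% and 65.9%, miR-215-5p runs from 1.07% to 4.95%, and miR-34a-5p is higher in both AC3-/- bars than in both WT bars.

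Ratios within a library do not depend on the scaling between libraries. miR-215-5p stood at 1.49% and 4.95% of miR-192-5p in AC3-/- libraries a and b, against 2.52% and 1.07% in WT libraries a and b, and the genotypes overlapped. miR-34a-5p stood at 10.4% and 13.8% of miR-192-5p in AC3-/- libraries a and b, against 7.55% and 5.24% in WT libraries a and b, with both AC3-/- values above both WT values. The same held for the ratio to miR-192-5p of 146 of the 445 miRNAs other than miR-192-5p (32.8%), miR-34a-5p among them, so it does not set miR-34a-5p apart.

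**Figure D3:**
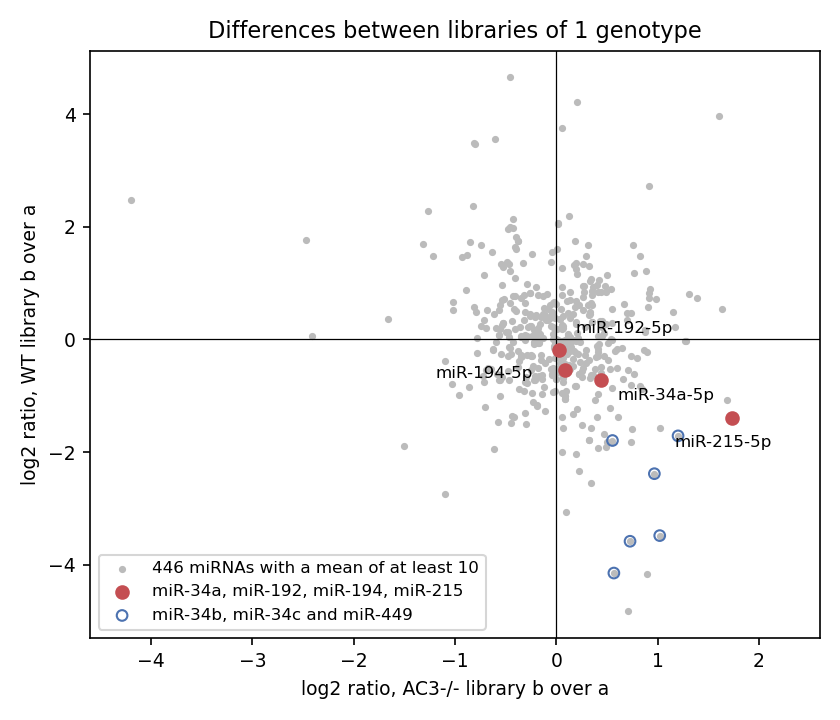
log2 ratio of library b to library a within AC3-/- (horizontal axis) against that within WT (vertical axis) for the 446 miRNAs that averaged 10 normalised reads or more, 1 point per miRNA, members in red and miR-34b, miR-34c and miR-449 as blue circles. miR-192-5p sits near 0 on both axes, while miR-215-5p (1.74 and -1.40) lies far from 0 on both; the letters a and b are arbitrary, so the sign on either axis carries no meaning.

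The members varied unequally between libraries of 1 genotype. From library a to b, the log2 ratio within AC3-/- was 1.74 for miR-215-5p, 0.44 for miR-34a-5p, 0.09 for miR-194-5p and 0.03 for miR-192-5p. Within WT it was -1.40, -0.71, -0.54 and -0.19 in the same order. The AC3-/- ratio of miR-215-5p was the 4th largest in size of the 446 miRNAs, and its WT ratio the 71st. By size within AC3-/- and WT, miR-34a-5p ranked 165 and 178, miR-194-5p 376 and 234, and miR-192-5p 425 and 372. The median of the signed ratios over all 446 was 0.01 within AC3-/- and 0.04 within WT. Ratios of opposite sign cancel in that median, so it gives no typical size. In size, the ratios of the 4 members kept the same order in both genotypes. The letters were given within each genotype, so signs cannot be compared between genotypes.

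Patterns over the 4 libraries were compared by the root mean square difference of centred log2 values, as a description over 4 points that share their scaling. For miR-215-5p the nearest of the non-members with a mean of at least 100 was miR-34b-3p of the multiciliated list (0.23), followed by miR-92b-3p (0.38) and miR-92b-5p (0.40). miR-34b-3p had 4814.0 and 11069.5 normalised reads in AC3-/- libraries a and b, against 10219.9 and 3121.2 in WT libraries a and b, the same order of libraries as miR-215-5p. miR-34b-5p and miR-34c-3p came 5th and 6th, while miR-449c-5p (0.82) and miR-449a-5p (1.11) of the same list came 102nd and 211th. The summed multiciliated list, given above, moved in that order between WT libraries and between AC3-/- libraries too; its part in the values of miR-215-5p was not tested. The leukocyte list, summed over 6 of its 7 miRNAs, was 14240.7 and 17815.4 normalised reads in AC3-/- libraries a and b, against 16824.8 and 5228.4 in WT libraries a and b. It was lowest in WT library b, as miR-34a-5p, miR-194-5p and miR-215-5p were. The red blood cell list was lowest there too (6224.4 and 4758.8 in AC3-/-, 5773.0 and 3179.6 in WT, a and b). The neuron list, summed over 4 of its 6 miRNAs, was highest there (8652.2 and 8569.1 in AC3-/-, 7583.6 and 11142.1 in WT). Its miRNAs were split. miR-9-3p (3424 and 6084 in WT libraries a and b) and miR-138-5p (177 and 710) were highest there. miR-128-3p (4378 and 5037 in AC3-/-, 3961 and 4310 in WT) and miR-124-3p (228 and 183, against 21 and 37) were highest in an AC3-/- library. The part of these lists in the values of the members was not tested.

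For miR-192-5p the nearest were miR-203-3p (0.03), a miRNA of stratified epithelium, miR-676-3p (0.06) and miR-203b-5p (0.07). miR-203-3p had 11189.0 and 11004.9 normalised reads in AC3-/- libraries a and b, against 13873.0 and 12726.7 in WT libraries a and b. miR-194-5p, the cluster partner, was at 0.13, with 16 non-members nearer to miR-192-5p than it, while the seed twin miR-215-5p was at 0.82. For miR-194-5p the nearest were miR-3068-3p (0.07), miR-181b-5p (0.07) and miR-345-3p (0.08). For miR-34a-5p they were miR-135b-5p (0.07), miR-139-5p (0.11) and miR-574-5p (0.12), and miR-135b-5p had 2956.7 and 4024.2 normalised reads in AC3-/- libraries a and b, against 2819.0 and 1854.7 in WT libraries a and b.

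**Figure D4:**
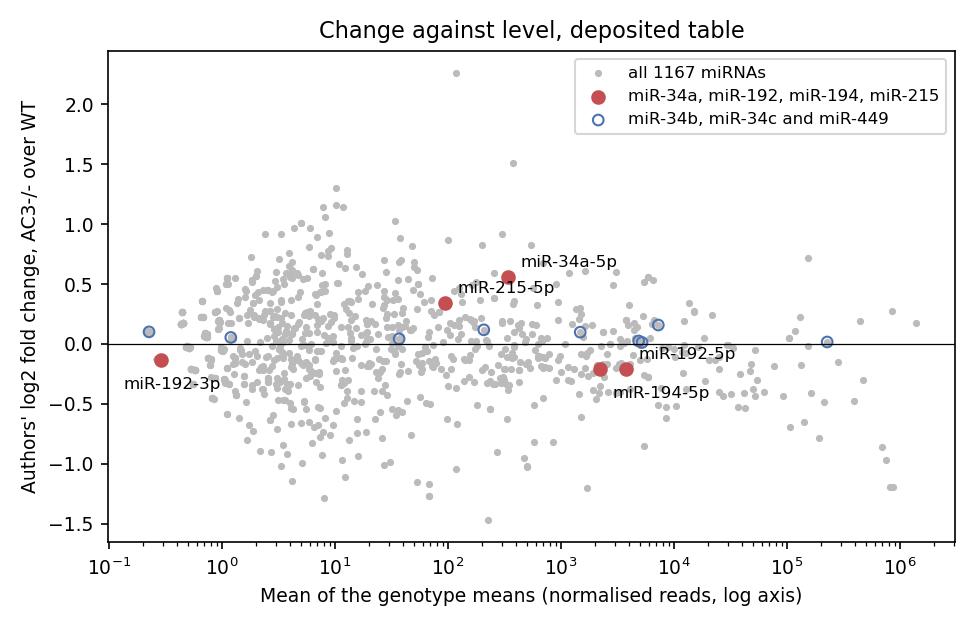
The log2 fold change (AC3-/- over WT, authors' deposited table, vertical axis) against the mean of the genotype means in normalised reads (horizontal log axis) for all 1167 miRNAs, with the 5 members in red and the miR-34b, miR-34c and miR-449 group as blue circles. The members run from -0.21 to 0.56 and lie inside the cloud of other miRNAs.

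Other miRNAs linked to p53 fell on both sides of 0. Of 10 rows, 4 were above and 6 below 0 in the authors' deposited table (median log2 fold change -0.16), and 0 had an unadjusted p under 0.05. miR-145a-5p, whose processing p53 promotes, had 15307.8 and 15340.4 normalised reads in AC3-/- libraries a and b, against 13053.8 and 10531.7 in WT libraries a and b, and did not pass (log2 fold change 0.34 with adjusted p = 0.940, from the authors' deposited table). The other arm, miR-145a-3p, lay below 0 at -0.28 (adjusted p = 0.940, from the authors' deposited table). It had 2502.8 and 1806.8 normalised reads in AC3-/- libraries a and b, against 3384.3 and 2052.3 in WT, and overlapped. miR-143-3p, the cluster partner of miR-145a-5p, averaged 474412 in AC3-/- and 408720 in WT. miR-16-5p, known for restraining the cell cycle, averaged 26632 in AC3-/- and 37413 in WT. Its deposited log2 fold change was -0.42, while that of miR-16-1-3p was 0.16. miR-107-3p had 1806.8 and 1299.8 normalised reads in AC3-/- libraries a and b, against 2302.6 and 1570.5 in WT libraries a and b, and overlapped.

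4 miRNAs known to target p53 mRNA, miR-125b-5p, miR-504-5p, miR-25-3p and miR-30d-5p, split evenly, 2 above and 2 below 0, with a median of 0.05. miR-30d-5p, the furthest from 0, averaged 175717 in AC3-/- and 253577 in WT, and the authors' deposited table puts it at a log2 fold change of -0.48 with p = 0.0968 and an adjusted p of 0.940.

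**Figure D5:**
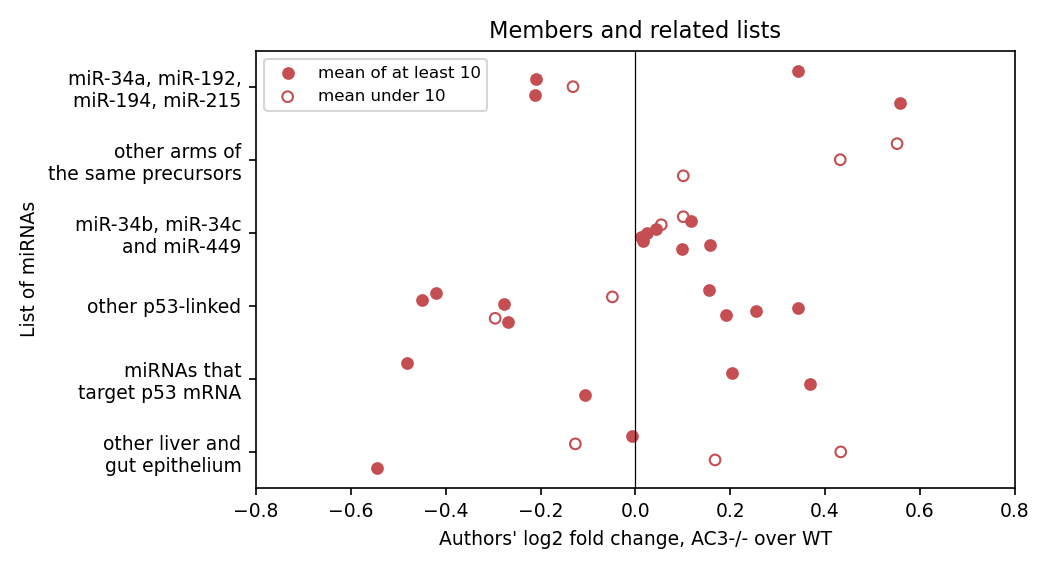
The log2 fold change (AC3-/- over WT, authors' deposited table, horizontal axis) of each miRNA in 6 lists (rows), filled where the mean of the genotype means is at least 10 normalised reads and open where it is under 10; the height within a row carries no value. The 9 miR-34b, miR-34c and miR-449 points lie close to and above 0, while the members and the other p53-linked miRNAs fall on both sides.

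Other miRNAs of liver and gut epithelium were scarce, apart from miR-375-3p, which endocrine cells also make. 2 of 5 rows lay above and 3 below 0, with 0 at an unadjusted p under 0.05. miR-122-5p, the dominant miRNA of liver, had 221.3 and 152.9 normalised reads in AC3-/- libraries a and b, against 261.4 and 320.4 in WT libraries a and b. Both AC3-/- libraries were below both WT ones, which was so for 76 of the 446 miRNAs (17.0%). The authors' deposited table puts miR-122-5p at a log2 fold change of -0.54 (p = 0.124, adjusted p = 0.940). miR-375-3p had 11394.6 and 13435.3 normalised reads in AC3-/- libraries a and b, against 12672.3 and 12276.5 in WT libraries a and b, and overlapped. miR-802-5p, of liver and pancreas, had 10 and 11 reads in the AC3-/- libraries, with means of 9.36 in AC3-/- and 5.53 in WT.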

How the data were processed

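The authors deposited 1 table of 1167 miRNAs, whose abundance columns hold a signal: per the file headers and values, the read counts of each genotype after normalisation, averaged. Beside these stand the authors' log2 fold change, p-value and adjusted p-value. The deposited log2 fold change is shrunken toward 0. Among miRNAs with a mean of at least 100 and a log2 ratio away from 0, it kept a median of 85.8% of that ratio. Scarcer miRNAs can be shrunken more, as miR-215-5p was (0.34 against 0.58 from the means). GRCm38, Bowtie and DESeq 1.8.3 are named in the submitters' processing notes, with no role; the miRBase release, read counter and filters were not given in the sources used here. Per the labels' protocols, small RNAs were ligated to adaptors, amplified by PCR and selected by size on a gel; no molecular identifiers are described, so intervals cover counting error only.

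Every mean could be written as whole reads of 2 libraries times 1 step per library, solved within rounding. Taken alone, each genotype had 1 solution in 1124 of 1167 rows (96.3%), including every mean under 22980.3 in AC3-/- and 24320.5 in WT, and no row had none. Rows with 1 solution in both genotypes, which have library values, numbered 1121. The steps gave size factors of 1.148 (AC3-/- library a), 1.099 (AC3-/- library b), 0.9411 (WT library a) and 0.8551 (WT library b). Library values were tested with limma 3.58.1 (R 4.3.3) on log2(value + 1) with its intensity trend, over miRNAs that averaged 10 or more, with Benjamini-Hochberg adjustment; adding 1 understates changes of low miRNAs. The recovery and the fit were tested on simulated data. Alternatives changed the pseudocount, filter, scaling, trend and libraries.

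The members and lists were chosen with earlier results of these data known. miRNAs were named as members, other arms, seed relatives, the listed p53-linked, p53-targeting and liver or gut miRNAs, and the 3 most alike in pattern per member; miR-34b-5p and miR-34c-3p as neighbours of miR-215-5p, and miR-802-5p, are given beside them. The analysis of ratios to miR-449a-5p was chosen after values were seen. No per-sample columns were left unused.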

Additional observations from a re-analysis of the deposited data

How the results depend on the processing

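No member passed an adjusted p of 0.05 in the authors' deposited table, after adjustment over miRNAs that averaged 10 or more, or in limma under any pseudocount, filter, scaling, trend or left-out library tried. miR-215-5p was not tested with the filter at a mean of 100. With 1 library left out, log2 differences ran from 0.35 to 1.06 for miR-34a-5p and from -0.32 to -0.13 for miR-192-5p. They ran from -0.49 to 0.059 for miR-194-5p, reversed without WT library a, and from -0.38 to 1.36 for miR-215-5p, reversed without AC3-/- library b (-0.38) and WT library b (-0.21). The cause was not tested. The number of members called stayed at 0. The calls over all 446 miRNAs were 64 without WT library a and 1 without WT library b. As shares of all normalised reads, a scaling chosen after seeing the data, the log2 ratios of AC3-/- over WT were 1.17 for miR-34a-5p, 1.08 for miR-215-5p, 0.27 for miR-192-5p and 0.26 for miR-194-5p, both miR-192-5p and miR-194-5p reversed, by the shift of 0.50 that applies to every miRNA. With median ratio and upper quartile scaling, the limma differences of miR-192-5p and miR-194-5p stayed below 0. The libraries of 2 members did not overlap with median ratio scaling (32.7% of all 446 miRNAs) and of 3 with upper quartile scaling (32.3%), which added miR-194-5p. With 1 library left out the count was 2 to 4 members, beside 53.1% to 81.4% of all 446; the 4 members came without WT library a, where the share was 81.4%. No paired analysis was possible because the deposited columns carry no replicate number. Depth limits miR-192-3p, miR-194-1-3p, miR-194-2-3p and miR-215-3p, each with a mean under 10.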
